A study of Mus musculus with 8 samples.

Results

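Chemokine ligand genes were examined in mouse interfollicular epidermis, the skin layer between hair follicles, with and without a conditional knockout (cKO) of G9a. G9a, encoded by Ehmt2, is a histone H3 lysine 9 methyltransferase. The members were selected by gene symbol alone: every probe set of the array whose platform annotation gave only symbols beginning with Ccl, Cxcl, Cx3cl or Xcl and a number. This gave 49 probe sets for 34 of the 17097 genes in the gene table. Of these genes, 23 had 1 probe set and 11 had several, and where there were several the one with the highest average signal across the 8 arrays represented the gene.

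The study compared 4 arrays from G9a cKO animals with 4 arrays from G9a wild-type (WT) animals. All 8 samples came from epidermis at a pre-neoplastic stage, titled as IFE (interfollicular epidermis) cells and labelled as from mice 15 weeks old. Shaved back skin of every animal was painted once a week for 6 weeks, from 8 weeks of age, with the mutagen DMBA (7,12-dimethylbenz[a]anthracene) at 0.25 mg/ml and the tumour promoter TPA (12-O-tetradecanoylphorbol-13-acetate) at 0.02 mg/ml, in 200 µl of acetone. Controls were therefore treated too, and no untreated skin was analysed here. The sample titles name DMBA alone, while the source names give DMBA/TPA. The sources used here do not give the Cre driver, the deleted exons, or whether each replicate was a separate animal. The p-values therefore set group differences against the variation among these 8 samples only. They cannot be taken to cover variation between animals.

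Chemokines are small secreted proteins that guide migrating leukocytes along gradients by binding G protein-coupled receptors on the cell surface. Their classes (CC, CXC, CX3C and XC) are named for the spacing of conserved cysteines near the amino terminus. In skin, keratinocytes make some chemokines constantly, and injury, phorbol esters and cytokines induce others through NF-kB and interferon signalling. Chemokines recruit T cells, neutrophils, monocytes and dendritic cells to inflamed epidermis.

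Sequence 5' of 3 genes is shown because Cxcl14 was the only member past the test, and because Cxcl9 and Cxcl10 are neighbours on chromosome 5 whose lowest values fell on the same arrays. Each line holds the 250 bases before the annotated start, from RefSeq on build GRCm38.p6, read 5' to 3' on the gene's strand. Capitals mark matches to any of 3 motifs on either strand: the interferon-stimulated response element core (GAAANNGAA), the STAT-binding gamma-activated site (TTCNNNGAA), and the kappaB consensus bound by NF-kB.
Cxcl14 promoter (chr13:56296552-56296801, minus strand): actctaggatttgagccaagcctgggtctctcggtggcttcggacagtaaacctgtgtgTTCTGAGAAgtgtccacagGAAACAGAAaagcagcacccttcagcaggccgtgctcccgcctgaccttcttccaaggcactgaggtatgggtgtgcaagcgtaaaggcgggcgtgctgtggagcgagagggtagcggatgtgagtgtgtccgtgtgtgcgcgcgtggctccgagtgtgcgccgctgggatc
Cxcl9 promoter (chr5:92328080-92328329, minus strand): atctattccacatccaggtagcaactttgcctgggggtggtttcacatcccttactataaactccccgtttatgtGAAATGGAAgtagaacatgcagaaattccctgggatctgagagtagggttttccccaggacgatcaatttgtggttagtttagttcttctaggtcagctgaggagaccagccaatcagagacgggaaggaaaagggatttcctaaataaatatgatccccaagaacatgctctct
Cxcl10 promoter (chr5:92348890-92349139, minus strand): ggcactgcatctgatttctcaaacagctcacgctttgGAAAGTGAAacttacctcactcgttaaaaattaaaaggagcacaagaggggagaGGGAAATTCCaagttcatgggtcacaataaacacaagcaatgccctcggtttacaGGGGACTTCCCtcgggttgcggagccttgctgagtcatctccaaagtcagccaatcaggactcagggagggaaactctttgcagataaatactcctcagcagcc

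Position -1 is the last base before the start. The Cxcl14 sequence held a gamma-activated site match from -191 to -183 and a response element core from -172 to -164. The Cxcl9 window held a response element core from -175 to -167. The Cxcl10 window held a response element core from -213 to -205 and 3 kappaB matches, of which the pair at -104 to -95 and -103 to -94 overlap. No match of 1 motif overlapped a match of another motif in these windows. Of 32851 mouse promoters of this length, 7.13% held the response element core, 7.02% the gamma-activated site and 7.25% the kappaB consensus. Among 27 promoters of the 24 members with an entry, the core was found in 6 (Ccl1, Ccl19, Ccl3, Cxcl10, Cxcl14 and Cxcl9), the gamma-activated site in 2 (Ccl17 and Cxcl14) and the kappaB consensus in 6 (Ccl1, Ccl20, Ccl9, Cxcl1, Cxcl10 and Cxcl2). A match describes letters and not a bound site.

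The deposited values were log2 expression with array medians from 5.72 to 5.8. Pearson's r between arrays, across the gene table with 1 probe set per gene, was 0.995 to 0.998 within groups and 0.993 to 0.997 between groups. The Ehmt2 probe set 1460692_PM_at fell by 2.88 (log2, SE 0.19, limma with Benjamini-Hochberg adjustment, adjusted p = 0.000244), from 9.25 to 9.77 in WT to 6.30 to 7.07 in cKO, whereas 1426888_PM_at differed by 0.01 (adjusted p = 0.996). On the first principal component WT array 4 sat at -7.37, inside the cKO range of -12.7 to 0.893 and away from the other WT arrays at 10.0 to 14.7, and cKO array 2 was the cKO array nearest to those WT arrays. The epithelial label was borne out by Krt14, a basal keratinocyte keratin, which averaged 12.9 with an SD of 0.03 over the 4 cKO arrays and 12.9 with an SD of 0.02 over the 4 WT arrays.

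Among the 34 chemokine genes, only Cxcl14, a chemokine that epithelia make constantly, was higher in cKO at an adjusted p under 0.05, and none was lower. The other 33 members did not pass. The background was 0.977% of all genes called, 0.790% higher and 0.187% lower, or 135 and 32 genes, by limma with Benjamini-Hochberg adjustment over all 17097 genes. At an unadjusted p under 0.05, 3 members passed (8.82%) against 9.33% of all genes. Values of the groups did not overlap for 3 members (8.82%) against 5.72% of all genes. In both counts the 3 members were Cxcl14, Ccl21b and Ccl27a, each higher in cKO, and both shares lie near the background.

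The members' differences were small. They ran from -0.26 to 0.32 (log2, cKO minus WT), with a median of 0.02 beside 0.01 over all genes, and the median size regardless of sign was 0.06 against 0.05. The cKO mean was the higher for 20 of 34 members (58.8%) and for 54.8% of all genes. For 31 members the 95% interval of the difference lay inside 1.5-fold in either direction. The interval reached further for Ccl8, Cxcl1 and Cxcl2, whose differences 4 arrays a group bound less tightly. In 18 members the mean lay below the lowest array median, where array signals are known to compress differences.

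**Figure D1:**
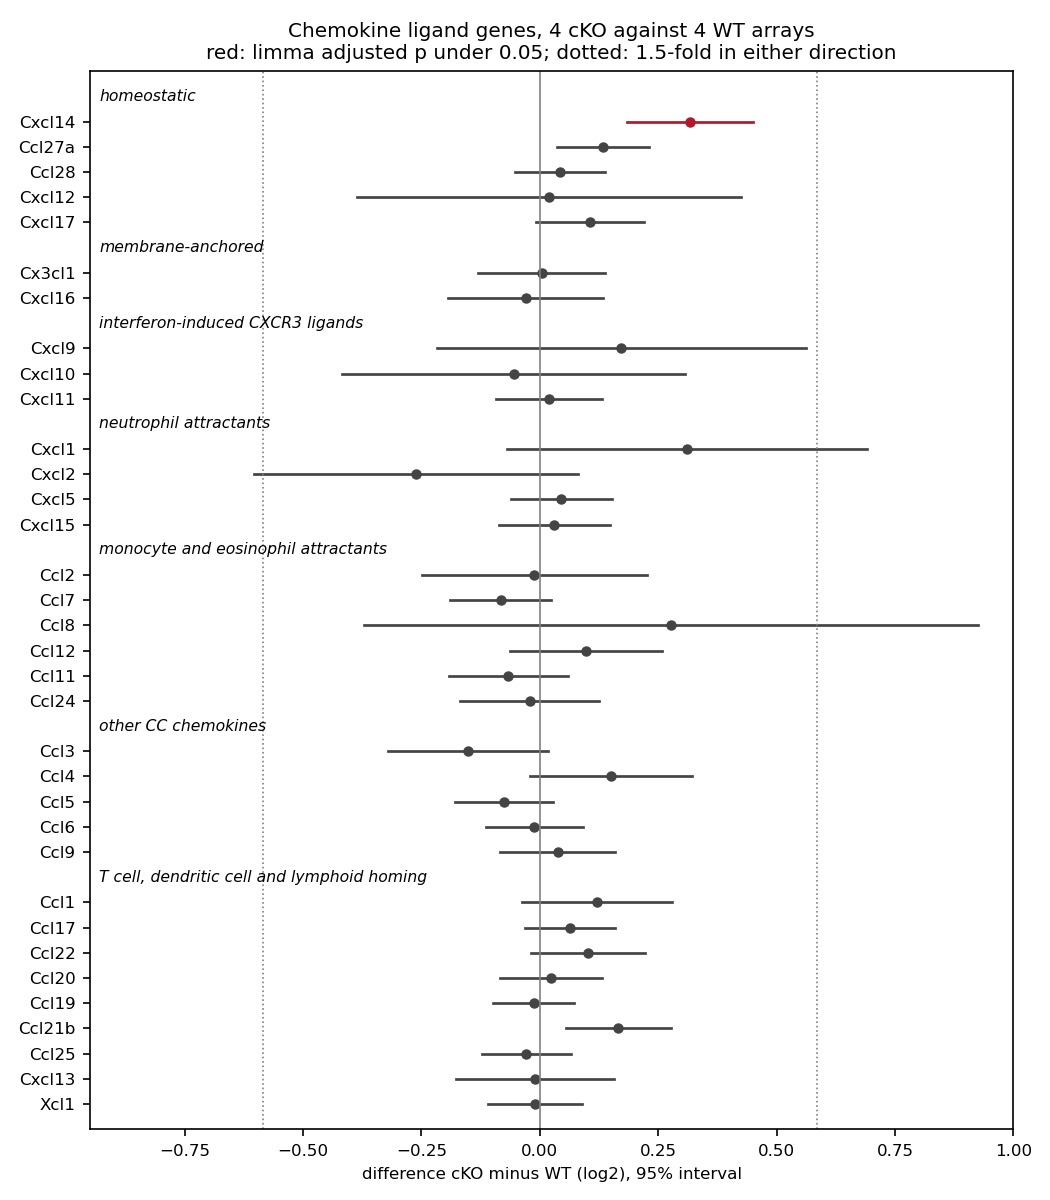
Difference between cKO and WT (log2, x axis) for each of the 34 chemokine genes, with its 95% interval, grouped by the role of the protein. Cxcl14, in red, is the only member past an adjusted p of 0.05, and 31 of the 34 intervals lie inside the dotted lines at 1.5-fold.

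The homeostatic chemokines, made by resting tissue, numbered 5, and all 5 means were higher in cKO, as were 54.8% of all genes. Their median difference was 0.11, but Ccl28 and Cxcl12 differed by only 0.04 and 0.02. Cxcl12 turned to -0.037 with array weights and to -0.18 without cKO array 2 and WT array 4. Cxcl14 (probe set 1418456_PM_a_at, chromosome 13), which attracts dendritic cell precursors and monocytes, measured 10.27, 10.44, 10.50 and 10.39 in cKO arrays 1 to 4 and 10.07, 10.10, 10.00 and 10.16 in WT arrays 1 to 4. Every cKO array was above every WT array. The means were 10.4 ± 0.10 and 10.1 ± 0.07 (log2, SD, n = 4 each), a difference of 0.32 (SE 0.06, 95% interval 0.18 to 0.45) or 1.25-fold (1.14 to 1.37). The limma adjusted p over all genes was 0.0437, and the two-sided exact permutation p was 0.0286, the lowest value possible with 70 arrangements of 4 against 4. Any gene whose groups do not overlap has this exact permutation p, and 5.72% of all genes were of that kind. In a bulk sample, more RNA per cell and more cells of the type that makes it cannot be told apart.

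The Cxcl14 call sat close to the threshold. The adjusted p ranged from 0.0216 to 0.164 when each array was left out in turn, with a difference of 0.28 to 0.36, and the call was kept without cKO array 1 and without WT array 4 but lost in the other 6 cases. Without both cKO array 2 and WT array 4 the difference was 0.33 (limma adjusted p = 0.0511). A second Cxcl14 probe set, 1418457_PM_at, read 8.50, 8.74, 8.78 and 8.72 in cKO and 8.49, 8.54, 8.36 and 8.53 in WT, a difference of 0.21 (SE 0.07, limma adjusted p over all probe sets = 0.440). Its groups overlapped through cKO array 1, which was also the lowest cKO array of the first probe set. In the fit over all 45037 probe sets the first probe set had an adjusted p of 0.0712. The call was also lost with a replicate block (limma adjusted p = 0.102), a repeated quantile normalization (0.0746), median centring (0.0827), the mean of its probe sets (0.120) and the upper 50% of genes alone (0.0572).

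Ccl27a (1419188_PM_s_at, chromosome 4), the keratinocyte chemokine that draws CCR10-positive T cells to skin, measured 11.60, 11.51, 11.58 and 11.51 in cKO and 11.41, 11.38, 11.40 and 11.47 in WT. The groups did not overlap, and cKO arrays 2 and 4 lay closest to WT array 4. The difference was 0.13 (SE 0.04, 95% interval 0.04 to 0.23) with a limma adjusted p of 0.316 and an exact permutation p of 0.0286. Its other 3 probe sets differed by 0.05, -0.02 and -0.03, with no shared direction, and the mouse genome holds near copies of this gene that the probes may not separate.

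Ccl28, the other CCR10 ligand, read 6.94, 6.95, 6.87 and 6.90 in cKO and 6.83, 6.85, 6.93 and 6.88 in WT. Its groups overlapped, with a difference of 0.04 (SE 0.04, limma adjusted p = 0.890). Cxcl17, a mucosal chemokine, differed by 0.11 (adjusted p = 0.577). Cxcl12, the CXCR4 ligand that retains stem and progenitor cells, differed by 0.02 (adjusted p = 0.992), and its WT arrays were spread widely, at 7.19, 6.71, 6.58 and 6.15 in order.

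**Figure D2:**
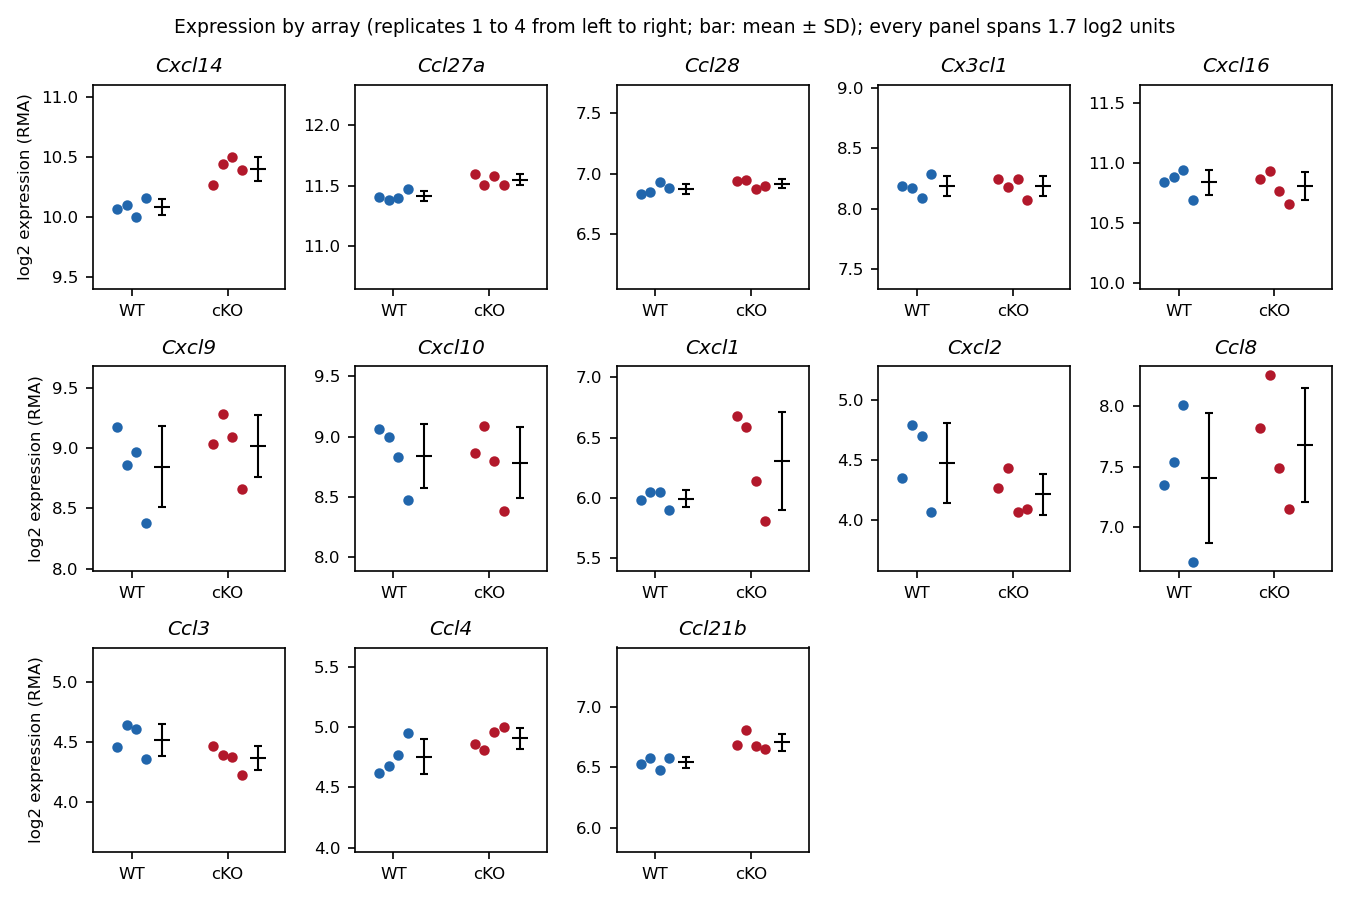
Log2 expression (y axis) in each of the 4 WT and 4 cKO arrays for the 13 members given array by array, with mean ± SD bars and the same 1.7-unit span in every panel. Cxcl14, Ccl27a and Ccl21b are the panels whose groups do not overlap, while Ccl8, Cxcl9 and Cxcl10 spread widely within each group.

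The membrane-anchored chemokines can be held on the cell surface on a mucin-like stalk until a protease sheds them. Cxcl16, which binds CXCR6 on T cells, measured 10.87, 10.93, 10.77 and 10.66 in cKO and 10.84, 10.88, 10.94 and 10.69 in WT. The overlap was almost complete, and the difference was -0.03 (SE 0.07, 95% interval -0.19 to 0.13, limma adjusted p = 0.969). Cx3cl1 (fractalkine), the ligand of CX3CR1 on monocytes and Langerhans cells, measured 8.25, 8.18, 8.25 and 8.07 in cKO and 8.19, 8.17, 8.09 and 8.29 in WT. Here the difference was 0.00 (SE 0.06, 95% interval -0.13 to 0.14, limma adjusted p = 0.993). Second probe sets of Cxcl16 and Cx3cl1 differed by 0.00 and 0.01.

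The 3 interferon-induced ligands of CXCR3, a receptor of effector T cells and natural killer cells, had a median difference of 0.02. Cxcl9 was 9.03, 9.28, 9.09 and 8.66 in cKO and 9.17, 8.86, 8.97 and 8.38 in WT. Cxcl10 was 8.86, 9.09, 8.80 and 8.38 in cKO and 9.06, 9.0, 8.83 and 8.47 in WT. For both genes array 4 was the lowest of its group in cKO and in WT, and the groups overlapped over most of their range. Cxcl9 differed by 0.17 (SE 0.17, 95% interval -0.22 to 0.56, limma adjusted p = 0.890), and by -0.07 without cKO array 2 and WT array 4. Cxcl10 differed by -0.06 (SE 0.16, 95% interval -0.42 to 0.31, limma adjusted p = 0.976). Cxcl11, which RefSeq lists as a transcribed pseudogene on GRCm38.p6, differed by 0.02 (adjusted p = 0.969).

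The 4 neutrophil attractants act mostly through CXCR2 and are the CXC members that carry the ELR motif. Their median difference was 0.04, against 0.02 for the 8 CXC members without it. Cxcl1 measured 6.68, 6.59, 6.14 and 5.81 in cKO and 5.98, 6.05, 6.05 and 5.90 in WT. Arrays 1, 2 and 3 of the cKO group were above all WT arrays and array 4 was below them. The difference was 0.31 (SE 0.17, 95% interval -0.07 to 0.69, limma adjusted p = 0.663). Cxcl2 measured 4.27, 4.43, 4.07 and 4.09 in cKO and 4.35, 4.79, 4.70 and 4.07 in WT. Its groups overlapped, with a difference of -0.26 (SE 0.15, 95% interval -0.60 to 0.08, limma adjusted p = 0.699). Cxcl5 differed by 0.05 (adjusted p = 0.901). Cxcl15, known from mouse lung, differed by 0.03 (adjusted p = 0.947), and its other probe set by 0.14 (limma adjusted p over all probe sets = 0.570).

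Among the 6 monocyte and eosinophil attractants, the median difference was -0.02. Ccl8, which in mice acts through CCR8, measured 7.82, 8.26, 7.49 and 7.15 in cKO and 7.35, 7.54, 8.01 and 6.71 in WT. Array 4 was again the lowest of each group. The difference was 0.28 (SE 0.29, 95% interval -0.37 to 0.93, limma adjusted p = 0.899), and -0.15 without cKO array 2 and WT array 4. The CCR2 ligands Ccl2, Ccl7 and Ccl12 differed by -0.01, -0.08 and 0.10, and the eotaxins Ccl11 and Ccl24, which bind CCR3, by -0.07 and -0.02. Adjusted p-values of these 5 genes from limma ran from 0.689 to 0.992.

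The other 5 CC chemokines draw macrophages and effector T cells. Ccl3, a macrophage inflammatory protein, measured 4.47, 4.39, 4.38 and 4.23 in cKO and 4.46, 4.64, 4.61 and 4.36 in WT, a difference of -0.15 (SE 0.08, limma adjusted p = 0.606). Ccl4, its neighbour on chromosome 11, measured 4.86, 4.81, 4.96 and 5.0 in cKO and 4.62, 4.68, 4.77 and 4.95 in WT, a difference of 0.15 (SE 0.08, limma adjusted p = 0.619). Both overlapped between groups, and both lay below the array median. Ccl5 differed by -0.08, Ccl6 by -0.01 and Ccl9 by 0.04.

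The 9 chemokines that guide T cells, dendritic cells and lymphocytes to their niches had a median of 0.02. Ccl21b, a CCR7 ligand of lymphatic vessels and lymph nodes, measured 6.69, 6.81, 6.68 and 6.65 in cKO and 6.53, 6.58, 6.48 and 6.58 in WT. Every cKO array was above every WT array. The difference was 0.17 (SE 0.05, 95% interval 0.05 to 0.28), with a limma adjusted p of 0.247 and an exact permutation p of 0.0286. Mice carry near-identical Ccl21 copies, so the signal is uncertain as to the copy. Ccl19, the other CCR7 ligand, differed by -0.01. The CCR4 ligands Ccl17 and Ccl22 differed by 0.06 and 0.10, the CCR6 ligand Ccl20 by 0.02, and the CCR8 ligand Ccl1 by 0.12. Ccl25, Cxcl13 and Xcl1, which bind CCR9, CXCR5 and XCR1, differed by -0.03, -0.01 and -0.01. Adjusted p-values of these 8 genes ran from 0.649 to 0.992 by limma.

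Most members lie in clusters on chromosomes 11 and 5. Of the 12 members on chromosome 11, which holds most of the CC genes, 5 were higher and 7 lower in cKO, with a median of -0.01. Of the 9 on chromosome 5, 5 were higher and 4 lower, with a median of 0.02. The 20 CC and 12 CXC genes each had a median of 0.03.

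Over all 49 chemokine probe sets, none passed when p-values were adjusted over all 45037 probe sets, against a background of 0.466%. At an unadjusted p under 0.05, 5 of 49 passed, against 7.98% of all probe sets. The groups did not overlap in 3 of 49, against 4.89%. Of the 11 genes with several probe sets, 7 had every difference of the same sign.

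**Figure D3:**
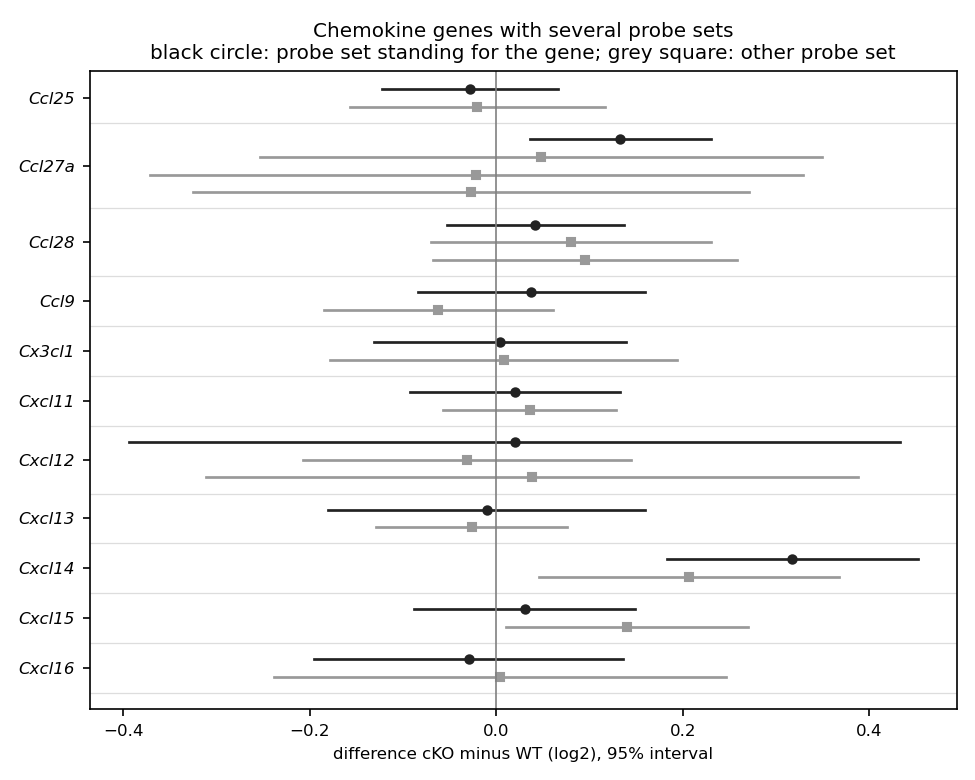
Difference between cKO and WT (log2, x axis) with 95% intervals for every probe set of the 11 chemokine genes that have several, fitted over all probe sets. Both Cxcl14 probe sets lie above 0, whereas 1 of the 4 Ccl27a probe sets has an interval that excludes 0.

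The spread within groups differed widely among the members. The pooled within-group SD had a median of 0.07 over members and 0.09 over all genes. Ccl8 had an SD of 0.51, larger than that of 99.9% of all genes. Cxcl12, Cxcl9, Cxcl1, Cxcl10 and Cxcl2 followed at 0.31, 0.30, 0.29, 0.28 and 0.26, at or above the 96.8th percentile. Ccl19, Ccl28 and Ccl27a were at the 1.01, 5.92 and 8.11 percentiles, and Cxcl14 was at 46.1.

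Array 4 was often the lowest of its group. It was the lowest cKO array for 19 of 34 members (55.9%) against 36.8% of all genes. In WT it was the lowest for 15 members (44.1%) against 30.5% of all genes. The reverse held for cKO array 1, the highest of its group for 16 members (47.1%) against 41.2% of all genes. These shares were not tested.

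The low arrays of Cxcl9, Cxcl10 and Ccl8 were also low in antigen presentation genes. The mean over 7 Langerhans and dendritic cell genes was 7.62, 7.73, 7.42 and 7.18 in cKO and 7.30, 7.40, 7.53 and 6.79 in WT. H2-Ab1, an MHC class II chain, was 10.64, 10.75, 10.29 and 9.87 in cKO and 10.12, 10.29, 10.47 and 9.10 in WT, and Cd74, its invariant chain, H2-Aa and H2-Eb1 had the same lowest array in each group. The defining dendritic markers Cd207 (langerin), Itgax and Flt3 were below the array median, at 4.50 to 4.78, 5.14 to 5.32 and 4.82 to 4.93. At this low signal, Cd207 and Flt3 were also lowest on array 4 of each group, while Itgax was lowest on cKO array 3 and WT array 1. Differences between groups were 0.49 for Cd74, 0.40 for H2-Aa, 0.39 for H2-Ab1 and 0.33 for H2-Eb1, and none passed (limma adjusted p from 0.730 to 0.808). The defining markers differed by 0.03 for Cd207, 0.02 for Itgax and -0.05 for Flt3. Irf1, an interferon-induced transcription factor, was 10.63, 10.70, 10.27 and 10.06 in cKO and 10.63, 10.62, 10.62 and 9.93 in WT. Gbp2 and Cd274 also had their lowest value of each group on array 4. The other 6 measured interferon gamma response genes had another lowest cKO array, and Ifng (4.48) and Socs1 (5.36) were highest on cKO array 4. In WT, array 4 was the lowest for 7 of the 9 measured genes, with Ifng (4.36) and Socs1 (4.95) among them. The part of these cells or of interferon in the chemokine values was not tested.

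**Figure D4:**
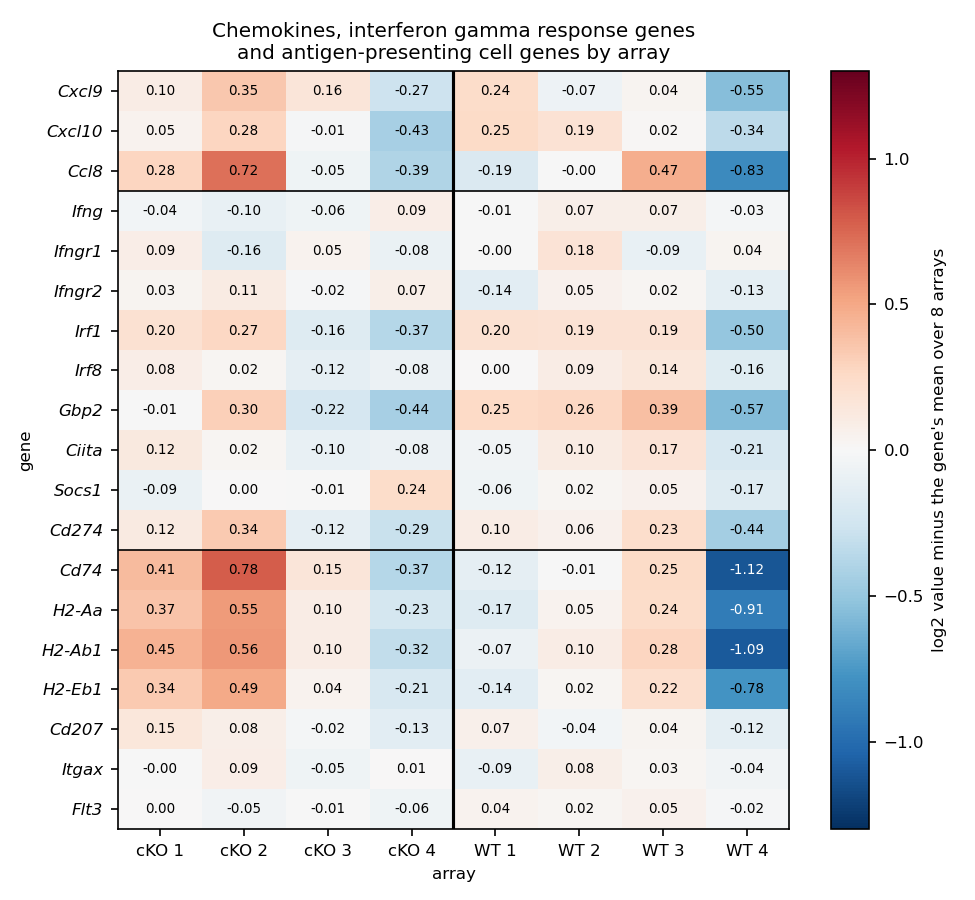
Log2 value minus the gene's mean over the 8 arrays (colour and number) for Cxcl9, Cxcl10 and Ccl8, for the 9 measured interferon gamma response genes and for 7 Langerhans and dendritic cell genes, by array. WT array 4 and cKO array 4 are below the mean for the 3 chemokines, Irf1, Gbp2, Cd274 and the MHC class II genes with Cd74, while Ifng, Ifngr2 and Socs1 are above it on cKO array 4.

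Correlations over the 8 arrays are given for 5 of 9 pairs as a description, with no p, since the pairs were picked because their array values had been seen to move together. Ccl8 against the mean of the Langerhans and dendritic list had Pearson's r = 0.963 and Spearman's rho = 0.952. This r was 0.921 without cKO array 2 and WT array 4, the arrays farthest from the median of the list. Cxcl9 against Cxcl10 had r = 0.845 and rho = 0.762, and r was 0.460 without cKO array 4 and WT array 4. Ccl8 against the mean of the interferon gamma response list had r = 0.847, rho = 0.857 and r = 0.514 without the same arrays. Cxcl9 against the Langerhans and dendritic list had r = 0.865, rho = 0.690 and r = 0.451 without cKO array 2 and WT array 4. Cxcl9 against Ccl8 had r = 0.799, rho = 0.595 and r = 0.289 without cKO array 4 and WT array 4. The other 4 pairs had r from 0.698 to 0.788 and, without the arrays farthest from the median, from -0.318 to 0.455. Leaving out the arrays farthest from the median narrows the range, which by itself lowers r, so these drops do not show what a relation rests on. Groups of 4 arrays were too small for an r within each genotype. With each value set against the mean of its genotype, r over all 8 arrays ran from 0.773 to 0.967 for the 9 pairs. All pairs share the arrays.

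Receptors and other genes of the chemokine system were read from the same limma fit, and no gene of any list passed at an adjusted p under 0.05. At an unadjusted limma p under 0.05, 1 receptor gene (Ccr4) and 1 NF-kB list gene (Tnfrsf1a) passed, 2 of 57 genes over the 6 pathway lists (3.51%) against 9.33% of all genes. Of 17 listed chemokine receptors 14 were measured, with a median difference of -0.02. Ccr4, the receptor of Ccl17 and Ccl22 on skin-homing T cells, was 6.15, 6.09, 6.37 and 6.64 in cKO and 6.64, 6.64, 6.74 and 6.79 in WT. Its cKO array 4 reached the lowest WT value, and the difference was -0.39 (SE 0.11, limma adjusted p = 0.215). With each array left out in turn it was -0.50 to -0.31, with a limma adjusted p of 0.0233 to 0.531, and it passed only without cKO array 4. Cxcr3 differed by 0.08 (adjusted p = 0.591) and Cxcr2 by -0.06 (adjusted p = 0.905).

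Atypical receptors, which take up chemokines without signalling through G proteins, were measured for 4 of 5 genes, with a median of 0.04. Ackr3, a Cxcl12 scavenger, differed by -0.19 (limma adjusted p = 0.653), Ackr2 by 0.17 (adjusted p = 0.792) and Ccrl2 by 0.05 (adjusted p = 0.978). The platelet chemokines named outside the symbol rule, Pf4 and Ppbp, were both measured and differed by 0.03 and -0.06. Genes of NF-kB signalling and the cytokines that induce chemokines were measured for 20 of 25, with a median of -0.02. Bcl3, an NF-kB cofactor, differed by -0.34 (SE 0.15, adjusted p = 0.540), Tnfaip3, a feedback inhibitor, by 0.15 (adjusted p = 0.905) and Il1a by 0.14 (adjusted p = 0.853). Without cKO array 2 and WT array 4, Bcl3 differed by -0.56 (limma adjusted p = 0.0328), while Tnfaip3 and Il1a each differed by -0.04. No other alternative brought Bcl3 past the threshold. On the first principal component WT array 4 lay among the cKO arrays, and cKO array 2 lay nearest the other WT arrays. Without these 2 arrays the count of all genes that pass rose from 167 to 430, so a pass in that fit cannot be told apart from this rise.

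Interferon gamma response genes were measured for 9 of 10, with a median of -0.03. Gbp2 differed by -0.18 (limma adjusted p = 0.920), the receptor chain Ifngr2 by 0.10 (adjusted p = 0.723) and the inhibitor Socs1 by 0.08 (adjusted p = 0.894). Without cKO array 2 and WT array 4 the difference of Gbp2 was -0.53 (limma adjusted p = 0.0390), and no other alternative brought it past the threshold. In that fit 430 of all genes passed, against 167 with all 8 arrays. Proteases and heparan sulfate genes that process or retain chemokines were measured for 8 of 10, with a median of -0.03. Mmp2 differed by 0.13, Mmp9 by -0.11 and Adam10, a sheddase of Cx3cl1 and Cxcl16, by -0.08.

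Markers of the cells the sample could hold gave no gene past the test either. At an unadjusted limma p under 0.05, 1 gene passed in each of the keratinocyte, neutrophil, fibroblast and melanocyte lists and 2 in the macrophage list, in all 6 of 78 genes (7.69%) against 9.33% of all genes. The Langerhans and dendritic list had 7 of 7 genes measured and a median of 0.33, with Cd74 and the 3 MHC class II genes at 0.33 to 0.49 and Cd207, Itgax and Flt3 at 0.03, 0.02 and -0.05. Medians of the other lists were 0.02 for keratinocytes (13 of 14), -0.02 for neutrophils (8 of 10), 0.03 for macrophages (10 of 10), 0.05 for T cells (7 of 8) and 0.01 for mast cells (6 of 6). They were 0.01 for endothelium (8 of 8), 0.05 for fibroblasts (7 of 7), 0.08 for melanocytes (5 of 5), 0.04 for platelets and red cells (4 of 5) and -0.03 for B cells (3 of 4). The brightest gene of each list differed by -0.01 for Krt14, -0.04 for Ltf, -0.08 for Cd68, 0.06 for Cd4, 0.39 for H2-Ab1 and 0.05 for Cma1. The same value was -0.08 for Egfl7, 0.07 for Dcn, -0.03 for Pmel, 0.07 for Hba-a1 and 0.02 for Cd79a. The mean level over the neutrophil list, the target cells of the ELR chemokines, was 4.53 to 4.57 in cKO and 4.51 to 4.57 in WT. Over the T cell list it was 4.98 to 5.08 in cKO and 4.94 to 5.05 in WT, and over the macrophage list 4.53 to 4.59 and 4.48 to 4.55. All of these list means lay below the lowest array median of 5.72, where differences are compressed, so near-equal values do not show equal cell content.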

How the data were processed

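RNA from 8 epidermis samples, extracted with TRIzol, was amplified (25 ng RNA, 17 cycles) and 8 µg cDNA was hybridised to Affymetrix arrays, per the labels' protocols. The authors deposited log2 values, and the submitters' processing notes name RMA. No version is stated in the labels or the value table, and the log base was taken from the range of the values, 3.06 to 13.0. Of 45141 rows, 104 control probe sets were left out. Among the 45037 tested, 28898 had 1 gene symbol, 551 several and 15588 none, and 28689 were matched to RefSeq by Entrez number. limma 3.58.1 (R 4.3.3; lmFit, eBayes, two-sided, Benjamini-Hochberg over all genes, threshold 0.05) was run on 1 probe set per gene, with no covariate and no filter, and again on all probe sets. It was also run on simulated data. The changes added there were larger in size than any member's difference, so that run does not cover differences as small as those seen here. Figures used matplotlib 3.10.9.

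The members, the gene lists and the alternatives were chosen with earlier results of these data known. All members could be named; array values were given for members that passed and for the 8 highest in mean and the 8 largest in difference, 13 genes in all, and for Cxcl12 because of its spread. From each pathway list the 3 largest differences were named, and from each marker list the gene with the highest mean. The other antigen presentation and interferon genes were named after their values were seen. Same-numbered arrays had correlations of deviations of 0.139, 0.176, -0.591 and 0.308, and differently numbered arrays of -0.588 to 0.519. The labels do not state that the numbers pair the samples, and so few values cannot settle it. No protein sequences were used, and 1 item is not reported here. Arrays give no read depth: the number of arrays limits the precision. The closing section gives the effect of the alternatives (replicate block, variance prior, array weights, normalization, centring, choice of probe set, a filter on dim genes, arrays left out, the threshold).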

Additional observations from a re-analysis of the deposited data

Results flagged for a closer look

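Across the 68 sets of 4 values (34 members, 2 genotypes), 2 held an array far from the other 3, where chance alone gives about 1 in 20. Ccl12, a CCR2 ligand of mice, was 4.15 on cKO array 1, with 0.967 of the group's range between it and the nearest array. The other cKO arrays were at 3.93, 3.93 and 3.94. Ccl22, a CCR4 ligand, was 5.31 on cKO array 3, with 0.838 of the range below the nearest array, while the other cKO arrays were at 5.42, 5.43 and 5.41. Neither gene passed the test between genotypes.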

How the results depend on the processing

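The count of all genes that pass (167) was 604 with array weights, 69 in the upper 50% of genes by mean, 430 without cKO array 2 and WT array 4, 75 at an adjusted p under 0.01 and 280 at 0.10, and 81 to 249 with 1 array left out. It was 141 with the replicate block, 188 with a variance trend, 169 after a repeated quantile normalization and 173 after median centring. The count of chemokine genes (1, Cxcl14) stayed at 1 with array weights, a variance trend, probe sets chosen by the WT mean and an adjusted p under 0.10. It was 0 with the replicate block, repeated quantile normalization, median centring, the mean of probe sets, the upper 50% by mean (12 members tested), without cKO array 2 and WT array 4, over all probe sets and at an adjusted p under 0.01, and 0 to 1 with 1 array left out; 3 to 7 members had an unadjusted limma p under 0.05 in these fits. The adjusted p of Cxcl14 by limma was 0.102, 0.0746, 0.0827, 0.120, 0.0572, 0.0511 and 0.0712 in the first 7 of these, with a difference of 0.26 to 0.33; the cause was not tested. The members' median stayed between -0.00 and 0.05.

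The replicate block changed no other call of a gene named here. The direction turned for Ccl6 to 0.0087 and Cxcl12 to -0.037 with array weights, Ccl9 to -0.012 with the mean of probe sets and Cx3cl1 to -0.012 with median centring. Without cKO array 2 and WT array 4, Ccl6 turned to 0.0019, Ccl8 to -0.15, Cxcl9 to -0.071, Cxcl11 to -0.0027, Cxcl12 to -0.18, Ccrl2 to -0.12, Il1a to -0.041 and Tnfaip3 to -0.037. With 1 array left out, these crossed 0: Ccl2 (-0.076 to 0.067), Ccl6 (-0.031 to 0.015), Ccl20 (-0.0027 to 0.055), Ccl24 (-0.066 to 0.032), Ccrl2 (-0.11 to 0.14), Cx3cl1 (-0.029 to 0.043), Cxcl10 (-0.18 to 0.079), Cxcl11 (-0.011 to 0.049), Cxcl12 (-0.15 to 0.20), Cxcl13 (-0.052 to 0.042), Cxcl16 (-0.079 to 0.020), Tnfaip3 (-0.013 to 0.26) and Xcl1 (-0.028 to 0.0096). The cause was not tested. Low signal limits the 18 members below the array median, and 4 arrays a group limit all.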
